A study of Mus musculus with 12 samples.

Results

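The genes described here encode the conjugating enzymes of the liver: the cytosolic glutathione transferases (Gst), the UDP-glucuronosyltransferases (Ugt), and the sulfotransferases (Sult). They were taken by name, as every symbol in the count files that begins with Gsta, Gstk, Gstm, Gsto, Gstp, Gstt or Gstz and a digit, with Ugt1, Ugt2 or Ugt3 and a or b and a digit, or with Sult and a digit. This gave 60 of 24421 symbols, of which 21 are Gst, 20 are Ugt, and 19 are Sult genes.

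These enzymes make reactive or fat-soluble molecules easier to excrete. Glutathione transferases join the tripeptide glutathione to electrophiles and reduce some lipid peroxides, UDP-glucuronosyltransferases add the sugar acid of UDP-glucuronate to bilirubin, steroids and drugs, and sulfotransferases move a sulfate group from the donor PAPS to phenols, steroids and bile acids. In the normal liver many of these genes are active in hepatocytes, and their levels depend on the position of the hepatocyte in the lobule, on sex, and on receptors and factors that sense foreign compounds and oxidants, among them Nrf2.

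The libraries were made from poly(A) RNA of 6 tumors and of 6 non-tumoral livers, 1 of each per mouse. The p21+/Tert mice express telomerase (Tert) and the p21+/TertCi mice a catalytically inactive Tert, in both cases from the promoter of Cdkn1a, which encodes p21, and both keep the endogenous Tert gene. All were over 18 months old, had a standard diet, and carried no treatment that the labels name, and no wild-type mouse was analysed here, so livers and tumors share the modified p21 allele. The p21+/Tert group had 4 livers and 4 tumors, of which T-HCC662 and T-HCC663 carried a Ctnnb1 mutation (the gene of β-catenin), T-HCC941 an Egfr mutation, and T-HCA992 neither. Each liver is called here by the tumor of its mouse, and the one given as the T-HCC662 liver carries another mouse number in its title, so that statements on T-HCC662 and its own liver rest on that assignment. The p21+/TertCi group had 2 livers and 2 tumors, TCi-HCC981 with an Hras mutation and TCi-HCA984 with neither. Driver classes come from the mutations given for each tumor in the study. The Ctnnb1 class therefore exists in p21+/Tert mice alone, and the tumors with an Egfr or Hras mutation are both named carcinomas whereas those with neither are both named adenomas, so these properties cannot be told apart. T-HCC663 is named a carcinoma but listed as an adenoma in the study's histology.

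Between 14571716 and 26170661 reads per library were counted on genes. Levels are given as CPM, reads per 1000000 of the library size after scaling with edgeR's TMM method. All 12 libraries held hepatocyte transcripts, with a summed level of 7 hepatocyte genes from 37900 to 66200 CPM in livers and from 18400 to 102000 CPM in tumors. The TCi-HCA984 liver stood apart for the transferases: among the 40 members with a mean of at least 1 CPM (the Ugt1a genes counted once), it was the lowest of the 6 livers for 30. The 8 pericentral hepatocyte genes, which β-catenin activates, summed to between 6450 and 10800 CPM in livers, to 26300 CPM in T-HCC662, to 21600 CPM in T-HCC663, and to between 487 and 2610 CPM in the other 4 tumors. In bulk RNA, fewer cells of a type and less RNA per cell cannot be told apart.

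Many members lie in clusters, with the 7 Gstm genes on chromosome 3, the 8 Ugt1a genes on chromosome 1, 13 Ugt2 and Sult1 genes on chromosome 5, and the 8 Sult2a genes among 10 members on chromosome 7. Promoter sequences in RefSeq (GRCm38.p6) were matched for 52 of the 60 genes, with 63 start sites. The 250 bases upstream of the start are shown for Gstm2, Gstm3 and Gstm6, neighbours that were higher in the Ctnnb1-mutated tumors, for Sult2a8, the sulfotransferase with the largest loss in CPM, and for Gsta3, an abundant glutathione transferase. Where a gene has several starts (Gstm6 has 3), the one nearest to the annotated start of the gene is shown. Capitals mark a match, on either strand, to 1 of 3 short motifs: TGACNNNGC (the core of the antioxidant response element bound by Nrf2), GCGTG (the core of the element bound by the aryl hydrocarbon receptor), or ATCAAAG (a core bound by the TCF and LEF partners of β-catenin).
Gstm2 (chr3:107986421-107986670, minus strand): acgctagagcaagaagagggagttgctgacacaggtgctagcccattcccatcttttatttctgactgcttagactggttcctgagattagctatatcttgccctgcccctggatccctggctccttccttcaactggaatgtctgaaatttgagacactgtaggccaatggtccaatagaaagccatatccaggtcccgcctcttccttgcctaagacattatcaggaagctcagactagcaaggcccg
Gstm3 (chr3:107969175-107969424, minus strand): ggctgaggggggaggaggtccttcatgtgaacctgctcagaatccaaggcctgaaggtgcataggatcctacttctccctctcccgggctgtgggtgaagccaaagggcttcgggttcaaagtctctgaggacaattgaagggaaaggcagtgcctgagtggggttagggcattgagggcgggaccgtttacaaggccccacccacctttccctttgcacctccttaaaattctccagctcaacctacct
Gstm6 (chr3:107943735-107943984, minus strand): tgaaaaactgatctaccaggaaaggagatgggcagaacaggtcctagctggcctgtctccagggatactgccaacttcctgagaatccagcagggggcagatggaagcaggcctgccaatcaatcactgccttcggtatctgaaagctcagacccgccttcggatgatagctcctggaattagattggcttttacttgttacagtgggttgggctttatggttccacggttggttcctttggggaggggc
Sult2a8 (chr7:14446588-14446837, minus strand): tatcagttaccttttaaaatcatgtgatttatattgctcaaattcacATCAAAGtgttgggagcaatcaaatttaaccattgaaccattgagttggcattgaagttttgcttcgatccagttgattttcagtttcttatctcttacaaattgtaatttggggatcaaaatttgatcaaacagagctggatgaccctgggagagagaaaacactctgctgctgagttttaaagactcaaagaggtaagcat
Gsta3 (chr1:21240335-21240584, plus strand): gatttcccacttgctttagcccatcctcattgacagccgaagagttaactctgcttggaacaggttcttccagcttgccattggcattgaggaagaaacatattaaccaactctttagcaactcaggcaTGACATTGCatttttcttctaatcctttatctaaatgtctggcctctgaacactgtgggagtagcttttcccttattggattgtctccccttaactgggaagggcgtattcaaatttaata

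The 3 Gstm windows held none of these motifs. Compared position by position without gaps, 28.4% of bases were identical between Gstm2 and Gstm3, 26.8% between Gstm3 and Gstm6, and 20.8% between Gstm2 and Gstm6. Over all start sites of the members, TGACNNNGC occurred in 3 of 63 windows (Gsta3, Gstm5, and Gstm7) and in 10.2% of all 32851 windows of this length. GCGTG occurred in 9 member windows and in 28.2% of all, and ATCAAAG in 1 member window, that of Sult2a8 with its match 203 bases before the start, and in 3.21% of all. A match to letters is no evidence of a bound site, and distant enhancers were not searched.

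The comparison of all tumors with all livers asked which transferases differ in tumor tissue on average over the drivers. A member called here need not differ from the livers in each driver class. Gsta1 and Gstm3, both glutathione transferases, were up-regulated, and 9 members were down-regulated: the glutathione transferases Gstk1 and Gstz1, the glucuronosyltransferases Ugt2a3 and Ugt2b1, Ugt3a1, and the sulfotransferases Sult1d1, Sult2a7, Sult2a8 and Sult5a1. The largest fall in the amount of transcript was that of Sult2a8, from a mean of 676.5 ± 419.8 CPM (SD, n = 6) in livers to at most 115.5 CPM in any tumor. Of the 60 members, 45 had enough reads to be tested, with 2 higher and 9 lower at an adjusted p under 0.05 (edgeR's quasi-likelihood test with Benjamini-Hochberg adjustment over 13822 genes). Over all genes tested, 6.77% were higher and 3.91% were lower. The 45 include 8 Ugt1a symbols that share their reads. With these counted once, 38 members were tested, with the same numbers higher and lower, and their median log2 fold change was -0.15 against 0.01 over all genes. By family, 2 Gst genes rose and 2 fell of 19 tested, 3 Ugt genes fell of 18 (the 8 Ugt1a symbols included), and 4 Sult genes fell of 8.

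**Figure D1:**
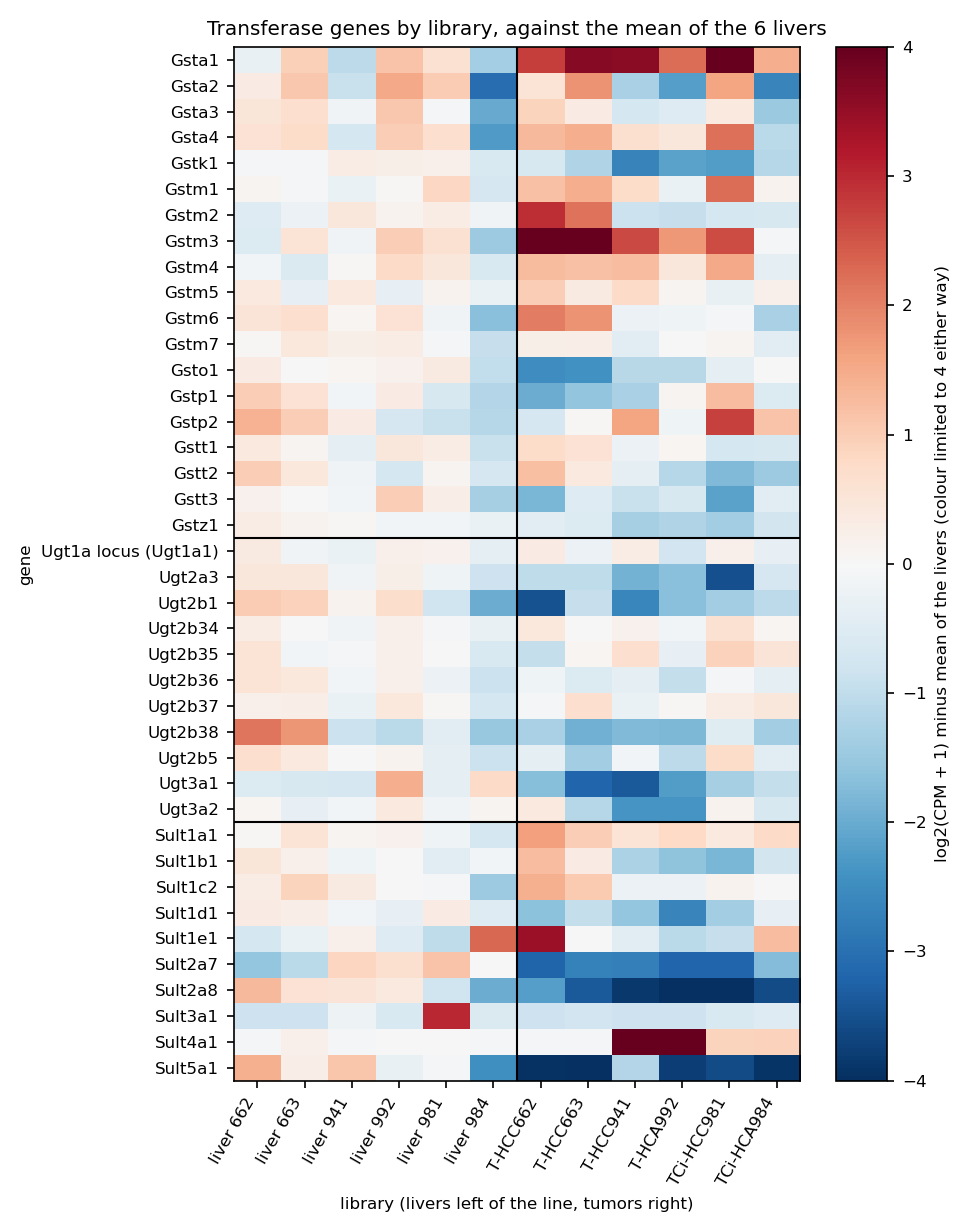
Heat map of 40 transferase genes with a mean of at least 1 CPM (rows, the 8 Ugt1a genes shown by Ugt1a1) in 12 libraries (columns, livers left of the line, labelled with the number of their mouse, and tumors right), coloured by the difference of log2(CPM + 1) from the mean over livers. Gsta1 is red in all 6 tumors, Sult2a7, Sult2a8 and Sult5a1 are blue in all 6, and the column of the TCi-HCA984 liver is blue for most genes.

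Gsta1 (chr9:78230656-78242684, GRCm38), an alpha class enzyme that conjugates electrophiles, ranged over the 6 livers from 0.443 CPM to 7.07 CPM with a median of 3.28 CPM. It stood at 23.9 CPM in T-HCC662, 44.8 CPM in T-HCC663, 43.4 CPM in T-HCC941, 16.1 CPM in T-HCA992, 9.04 CPM in TCi-HCA984, and 142 CPM in TCi-HCC981. Every tumor was above every liver, and the log2 fold change was 3.72 ± 0.78 (SE, adjusted p = 0.00999). Its identity is uncertain, because 81.8% of the 100-base windows of its exons also occur in Gsta2 or in the predicted copies Gm3776 and Gm10639. Gm3776 itself ranged from 0 to 5.85 CPM in livers and from 2.69 to 45.2 CPM in tumors, with its highest value also in TCi-HCC981. The other alpha class genes did not pass the threshold over all tumors. Gsta3, the most abundant of them, ranged from 248 to 2126 CPM in livers and from 362 to 1850 CPM in tumors.

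The mu class is a tandem array of 7 genes, and it supplied the most abundant transferase transcript. Gstm1 had the highest level per kilobase of exon of all members, 1430 CPM per kb as a mean of the 12 libraries. It ranged from 803 to 2289 CPM in livers, with a median of 1289 CPM, and reached 2874 CPM in T-HCC662, 3549 CPM in T-HCC663, 2130 CPM in T-HCC941, 1063 CPM in T-HCA992, 1414 CPM in TCi-HCA984, and 6114 CPM in TCi-HCC981. The groups overlapped and the gene did not pass the threshold. With TCi-HCC981 at the top, Gstm1 made up 59.8% of all Gst reads in that tumor, against 21.3% to 40.5% in the livers.

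Gstm3 (chr3:107963696-107969283) was the mu class gene that passed the threshold over all tumors. Its livers ranged from 28.1 to 155 CPM with a median of 94.0 CPM. The tumors stood at 1376 CPM in T-HCC662, 1459 CPM in T-HCC663, 501 CPM in T-HCC941, 266 CPM in T-HCA992, 74.8 CPM in TCi-HCA984, and 489 CPM in TCi-HCC981. All tumors except TCi-HCA984 were above every liver, each tumor was above the liver of its own mouse, and the log2 fold change was 2.93 ± 0.65 (adjusted p = 0.013).

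The 2 glutathione transferases that fell lie outside the detoxifying alpha and mu classes. Gstz1 (chr12:87147165-87164723) is maleylacetoacetate isomerase, which acts in tyrosine breakdown, and ranged in livers from 783 to 1161 CPM with a median of 913 CPM. It was lower in each tumor, at 684 CPM in T-HCC662, 637 CPM in T-HCC663, 369 CPM in T-HCC941, 408 CPM in T-HCA992, 566 CPM in TCi-HCA984, and 355 CPM in TCi-HCC981 (log2 fold change -0.90 ± 0.23, adjusted p = 0.0245). Gstk1 (chr6:42245935-42250447), an enzyme of mitochondria and peroxisomes, ranged from 81.8 to 155 CPM in livers with a median of 134 CPM. Its values were 80.1 CPM in T-HCC662, 54.2 CPM in T-HCC663, 18.9 CPM in T-HCC941, 27.8 CPM in T-HCA992, 57.4 CPM in TCi-HCA984, and 25.8 CPM in TCi-HCC981 (log2 fold change -1.55 ± 0.33, adjusted p = 0.0104). For both genes no tumor reached the lowest liver. In Gstk1 the tumor nearest to the livers was T-HCC662, at 80.1 CPM against 81.8 CPM in the TCi-HCA984 liver.

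Of the members that fell, 3 sulfotransferases had the largest log2 fold changes. Sult2a8 (chr7:14410686-14446769), a hydroxysteroid sulfotransferase of mouse liver that acts on bile acids, ranged from 135 to 1328 CPM in livers with a median of 737 CPM. It was 116 CPM in T-HCC662, 51.4 CPM in T-HCC663, 36.5 CPM in T-HCC941, 22.4 CPM in T-HCA992, 44.4 CPM in TCi-HCA984, and 1.39 CPM in TCi-HCC981 (log2 fold change -3.90 ± 0.80, adjusted p = 0.00858). No tumor reached the lowest liver, the TCi-HCA984 liver. Its neighbour Sult2a7 (chr7:14465051-14494230) ranged from 3.28 to 27.0 CPM in livers with a median of 15.1 CPM. In the tumors it was 0.356 CPM in T-HCC662, 0.953 CPM in T-HCC663, 0.909 CPM in T-HCC941, 0.396 CPM in T-HCA992, 2.75 CPM in TCi-HCA984, and 0.411 CPM in TCi-HCC981, again with no overlap (log2 fold change -3.93 ± 0.66, adjusted p = 0.00333). Neither gene shares a 100-base exon window with another annotated gene.

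Sult5a1 (chr8:123140192-123158315) ranged from 3.34 to 62.2 CPM in livers with a median of 24.7 CPM. It was at 0.534 CPM in T-HCC662, 0.0867 CPM in T-HCC663, 9.47 CPM in T-HCC941, 0.755 CPM in T-HCA992, 0.572 CPM in TCi-HCA984, and 0.976 CPM in TCi-HCC981 (log2 fold change -3.90 ± 0.97, adjusted p = 0.0227). T-HCC941 alone overlapped the livers. Sult1d1 (chr5:87554645-87569027), which sulfates catecholamines, ranged from 77.0 to 138 CPM in livers with a median of 116 CPM. Its tumors held 34.1 CPM in T-HCC662, 55.4 CPM in T-HCC663, 36.4 CPM in T-HCC941, 16.9 CPM in T-HCA992, 87.0 CPM in TCi-HCA984, and 41.0 CPM in TCi-HCC981 (log2 fold change -1.31 ± 0.32, adjusted p = 0.0214). TCi-HCA984 alone overlapped the livers, above its own liver.

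Sult1a1 (chr7:126672865-126676432), the main phenol sulfotransferase, went the other way without passing the threshold over all tumors. Livers ranged from 222 to 528 CPM with a median of 380 CPM, and the tumors had 1114 CPM in T-HCC662, 717 CPM in T-HCC663, 525 CPM in T-HCC941, 623 CPM in T-HCA992, 612 CPM in TCi-HCA984, and 471 CPM in TCi-HCC981. Each of the 6 tumors was above its own liver, and Sult1a1 passed the threshold under DESeq2 (adjusted p = 0.00626), with RLE scaling (0.0487), and with the mouse as a block (0.0412). The mix of sulfotransferase transcripts differed between livers and tumors. Sult1a1 made up 19.1% to 46.1% of all Sult reads in livers and 79.1% to 88.5% in tumors, and Sult2a8 28.1% to 68.4% in livers and 0.26% to 8.49% in tumors. The summed level of the 19 Sult genes was 1240 ± 514 CPM (SD, n = 6) in livers and 816 ± 289 CPM in tumors, within the spread of the livers.

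**Figure D2:**
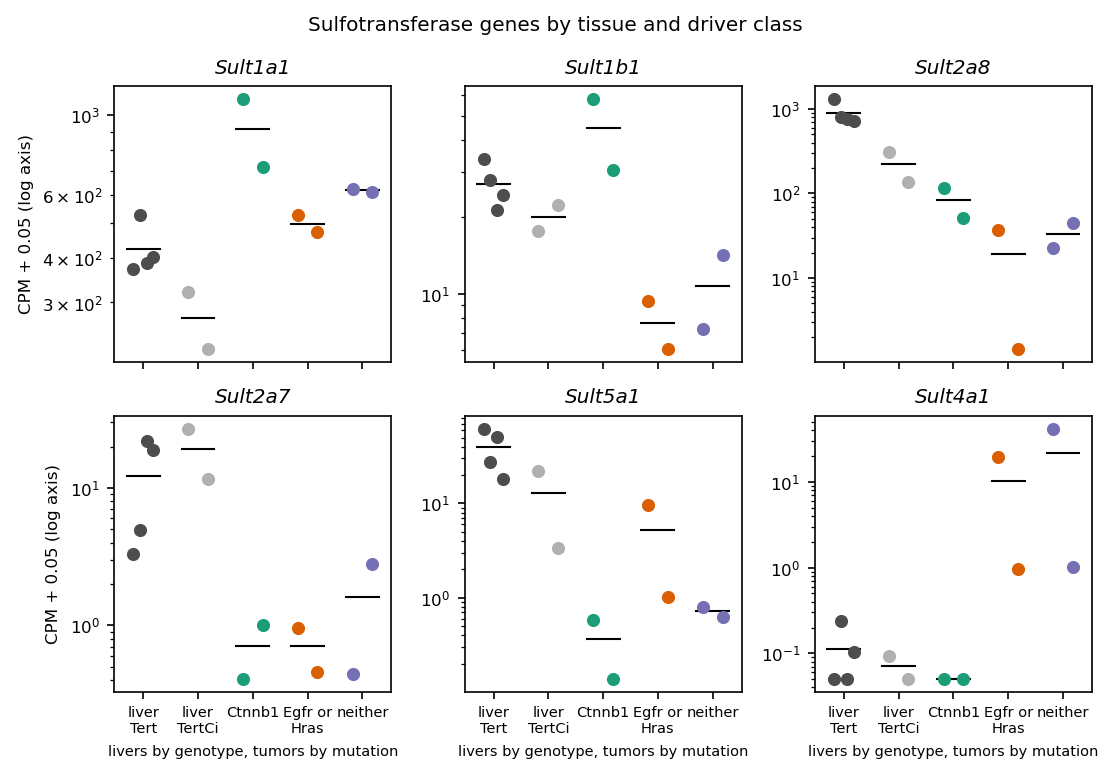
CPM + 0.05 (log axis) of 6 sulfotransferase genes in each library, with livers by genotype and tumors by mutation class along the horizontal axis, 1 point per library and a bar at the group mean. Sult2a8 and Sult2a7 are lower in all 6 tumors than in all 6 livers, and Sult4a1 reaches 19.6 CPM in T-HCC941 and 42.0 CPM in T-HCA992 with no read in the 2 Ctnnb1-mutated tumors.

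Several sulfotransferases with almost no reads in the livers had reads in tumors, at low levels (these genes were named after their values were seen). Sult2a2, a hydroxysteroid sulfotransferase, had 1 read in the 6 livers together and between 0.252 and 3.55 CPM in every tumor. The ratio of pooled levels was 137, with a 95% Poisson interval from 24.3 to 5460 that covers counting error only. Of its exon windows, 34.6% also occur in Sult2a1, Sult2a4 or Sult2a5, so the reads may belong to these copies in part. Sult2b1, which sulfates cholesterol, had no read in the livers and 145 reads in 5 tumors, a pooled level at least 39.6-fold higher when the livers are set at 3 reads over the group. Sult1c1 and Sult2a3 had no read in any library. Sult3a1, which is higher in female than in male mouse liver, was under 0.54 CPM in 11 libraries and at 13.3 CPM in the TCi-HCC981 liver. In that liver the Y-linked transcript Ddx3y was at 66.4 CPM and Xist, a transcript of females, at 0.127 CPM. Over all libraries Ddx3y ranged from 35.9 to 89.9 CPM and Xist from 0.103 to 1.44 CPM.

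The Ugt1a genes gave 1 measurement rather than 8. These genes share their last exons and differ in the first, and the 8 symbols had almost the same count in each library: Ugt1a2, Ugt1a7c and Ugt1a10 lay within 0.72% of each other everywhere, and the lowest of the 8 was between 76.5% and 96.2% of the highest. They were therefore read as 1 measurement, with shares of single genes uncertain. Ugt1a1, which conjugates bilirubin, ranged from 744 to 1222 CPM in livers with a median of 962 CPM and from 555 to 1184 CPM in tumors, and none of the 8 symbols passed the threshold in any of the comparisons. By CPM per kb Ugt1a1, Ugt1a5 and Ugt1a9 come first among Ugt genes on these shared reads. Ugt2b5 (388.8 ± 135.3 CPM per kb in livers and 305.5 ± 169.9 in tumors, SD, n = 6) and Ugt2b36 (277.0 ± 90.1 and 200.3 ± 40.7) were the most abundant outside that locus (named after their values were seen).

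The reads above the lowest of the 8 symbols mark the first exons, and they were low. Ugt1a1 had between 71.0 and 238 CPM above the lowest symbol in livers and between 30.4 and 147 CPM in tumors. Ugt1a5 had between 8.82 and 51.7 CPM in livers and 143 CPM in T-HCA992, the only library in which another symbol exceeded Ugt1a1. Ugt1a9 had between 3.07 and 30.8 CPM in livers and 87.2 CPM in TCi-HCC981. These values are descriptions, since no test was made on them.

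**Figure D3:**
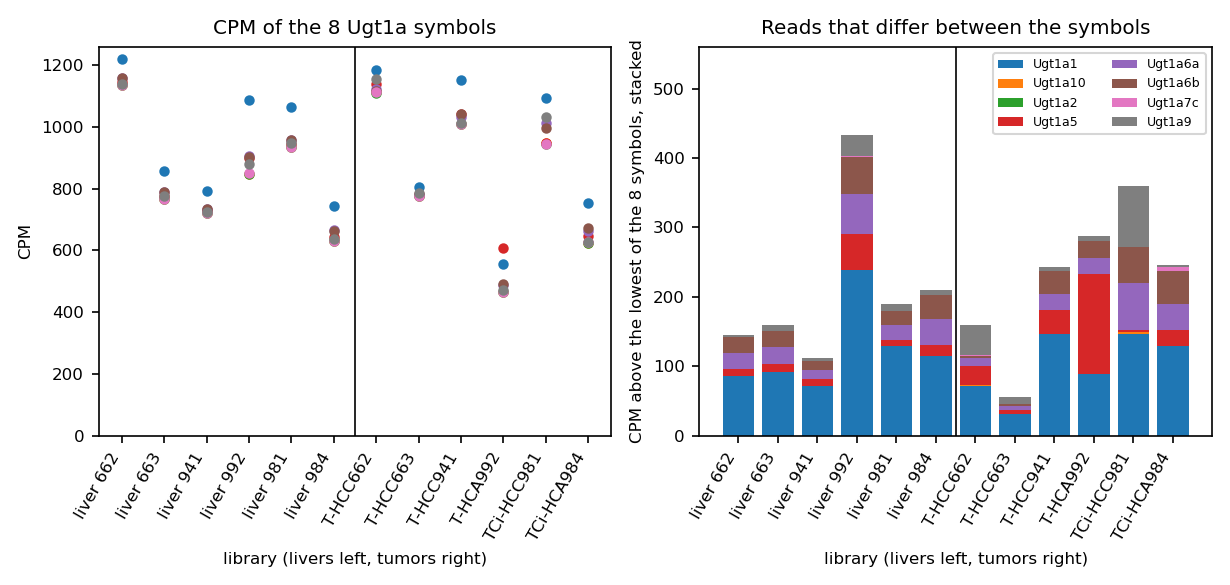
Left, CPM of the 8 Ugt1a symbols in each of the 12 libraries; right, CPM of each symbol above the lowest of the 8 in that library, stacked by symbol. The symbols nearly coincide in each library, and the part of Ugt1a5 is largest in T-HCA992, at 143 CPM.

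Outside that locus, 3 glucuronosyltransferase family genes fell. Ugt2b1 (chr5:86916638-86926530), which acts on steroids and foreign compounds, ranged from 79.1 to 628 CPM in livers with a median of 426 CPM. The tumors had 27.1 CPM in T-HCC662, 164 CPM in T-HCC663, 51.0 CPM in T-HCC941, 98.2 CPM in T-HCA992, 152 CPM in TCi-HCA984, and 118 CPM in TCi-HCC981 (log2 fold change -1.93 ± 0.53, adjusted p = 0.0335). With the mouse as a block the adjusted p was 0.0913, and TCi-HCA984 was above its own liver. Ugt2a3 (chr5:87324972-87337195) ranged from 119.5 to 290 CPM in livers with a median of 220 CPM. It was 103 CPM in T-HCC662, 104 CPM in T-HCC663, 56.2 CPM in T-HCC941, 65.3 CPM in T-HCA992, 134 CPM in TCi-HCA984, and 17.8 CPM in TCi-HCC981 (log2 fold change -1.46 ± 0.39, adjusted p = 0.0315). TCi-HCA984 alone overlapped the livers.

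Ugt3a1 (chr15:9276888-9315032) uses a different sugar, UDP-N-acetylglucosamine. Livers ranged from 21.6 to 97.6 CPM with a median of 25.2 CPM, and no tumor reached them, with 10.0 CPM in T-HCC662, 2.99 CPM in T-HCC663, 2.51 CPM in T-HCC941, 6.69 CPM in T-HCA992, 17.7 CPM in TCi-HCA984, and 13.3 CPM in TCi-HCC981 (log2 fold change -2.24 ± 0.54, adjusted p = 0.0206). The Ugt2b genes did not fall together. Ugt2b34, for one, ranged from 349 to 522 CPM in livers and from 393 to 652 CPM in tumors. The whole Ugt family, with the Ugt1a reads counted once, summed to 3840 ± 959 CPM (SD, n = 6) in livers and 3090 ± 796 CPM in tumors.

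The calls of Gsta1, Gstk1, Gstm3, Sult2a7, Sult2a8 and Ugt3a1 held with each of the 12 libraries left out in turn, whereas Gstz1, Ugt2a3, Ugt2b1, Sult1d1 and Sult5a1 each lost theirs without at least 1 library. Without the T-HCC662 liver, 6 members were called in place of 11, without T-HCC941 or T-HCA992 7, and without TCi-HCA984 or its liver 13. The shares of all genes called in these fits are not given here, so such shifts cannot be told from shifts over all genes.

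The levels of the other genes on the same chromosomes are given beside these results, and their part in them was not tested. The median over the other tested genes of chromosome 3, the site of the Gstm genes, was between -0.14 and 0.10 in the 6 tumors, as the difference of log2(CPM + 1) from the liver mean. On chromosome 7, the site of Sult2a8, it was between -0.11 and 0.04. Chromosome 15, with Ugt3a1 and Sult4a1, was at 0.50 in T-HCC662 and 0.39 in TCi-HCC981, and chromosome 1, with the Ugt1a genes, at 0.33 in T-HCC941 and 0.44 in TCi-HCC981. Chromosome 8, with Sult5a1, was at -0.29 in T-HCC941, -0.24 in TCi-HCC981, and -0.13 in T-HCA992. Chromosome 19, with Gsto1, was at -0.22 in T-HCC662, and chromosome 9, with Gsta1, at -0.26 in T-HCC941. Chromosome 5, with Ugt2b1, Ugt2a3 and Sult1d1, was at 0.17 in T-HCC941 and -0.20 in TCi-HCC981. On chromosomes 6, 10 and 12, with Gstk1, Gstt2 and Gstz1, the medians lay between -0.17 and 0.099.

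The comparison by driver class separated the members further. Gstm2 and Gstm6, mu class genes that did not pass the threshold over all tumors, were up-regulated in the Ctnnb1-mutated tumors T-HCC662 and T-HCC663, together with Gstm3, and in the other 4 tumors Gstm2 lay below every liver and Gstm6 within the range of the livers. Gsto1, an omega class enzyme that reduces dehydroascorbate, was down-regulated in the same tumors. Sult1b1 and Gstt2 were higher in Ctnnb1-mutated than in other tumors, and Sult4a1, a sulfotransferase best known from brain, was absent from the reads of the Ctnnb1-mutated tumors and present in all 4 others. In the direct test of the 2 Ctnnb1-mutated tumors against the 4 others, 6 of 50 members tested were higher (Gstk1, Gstm2, Gstm3, Gstm6, Gstt2, and Sult1b1) and 2 were lower (Gsto1 and Sult4a1), where 6.76% and 5.72% of all 15182 genes were. Of the 19 Gst genes tested, 5 were higher and 1 was lower. No Ugt gene passed the threshold in either direction.

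Gstm2 (chr3:107981702-107986453) had the smallest p of all members. Livers ranged from 57.8 to 115 CPM with a median of 83.8 CPM, and the Ctnnb1-mutated tumors had 646 CPM and 377 CPM in T-HCC662 and T-HCC663. The others had 45.7 CPM in T-HCC941, 43.7 CPM in T-HCA992, 53.4 CPM in TCi-HCA984, and 51.1 CPM in TCi-HCC981, each below every liver. The difference between Ctnnb1-mutated and other tumors was 3.41 ± 0.30 on the log2 scale (adjusted p = 9.93e-05). Against livers Gstm2 rose in the Ctnnb1-mutated tumors (log2 fold change 2.57 ± 0.26, adjusted p = 0.000264) and fell in the others (-0.83 ± 0.23, adjusted p = 0.0256).

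Gstm6 (chr3:107938847-107943749) ranged from 34.3 to 179 CPM in livers with a median of 139 CPM. It rose to 467 CPM in T-HCC662 and, in T-HCC663, to 392 CPM, with 94.8 CPM in T-HCC941, 99.2 CPM in T-HCA992, 44.9 CPM in TCi-HCA984, and 105 CPM in TCi-HCC981, a difference between the classes of 2.35 ± 0.50 (adjusted p = 0.0138). Gstm3, whose values are given above, rose in both classes against livers but more in the Ctnnb1-mutated tumors, with log2 fold changes of 3.96 ± 0.52 (adjusted p = 0.00119) and 1.66 ± 0.45 (0.0214) and a difference of 2.30 ± 0.58 (0.0285). The remaining mu class genes Gstm1, Gstm4, Gstm5 and Gstm7 did not pass the threshold in this test.

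**Figure D4:**
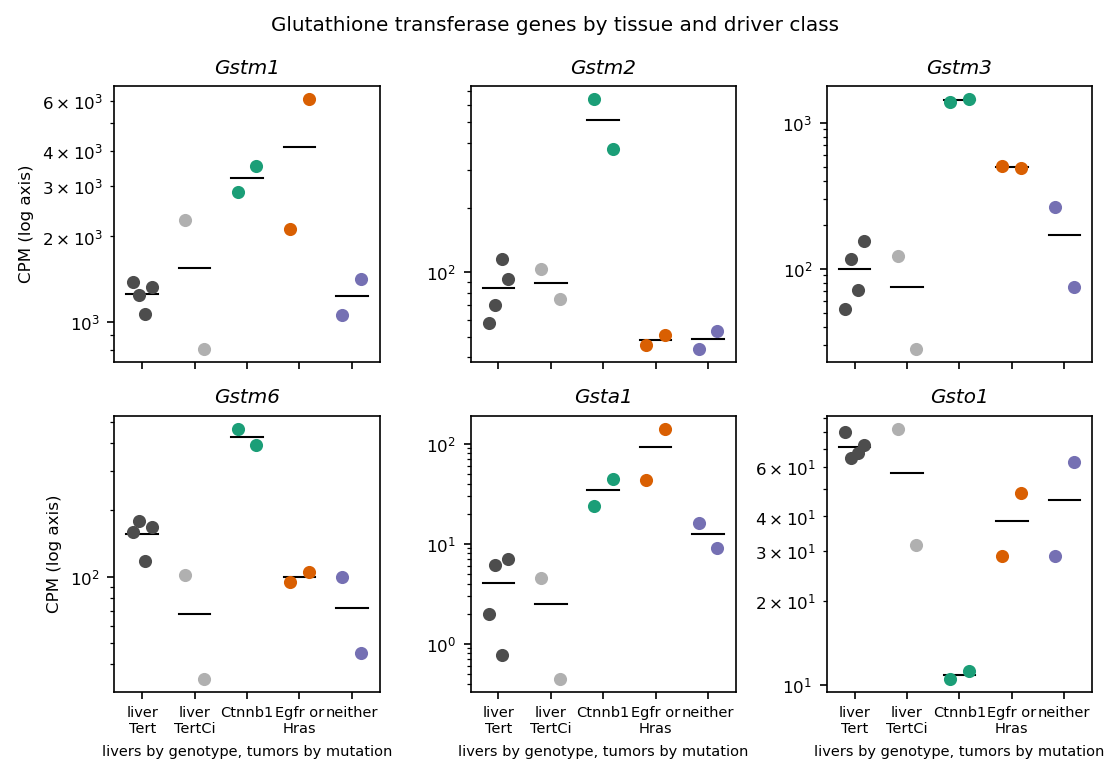
CPM (log axis) of 6 glutathione transferase genes in each library, with livers by genotype and tumors by mutation class along the horizontal axis, 1 point per library and a bar at the group mean. Gstm2, Gstm3 and Gstm6 are highest and Gsto1 lowest in the 2 Ctnnb1-mutated tumors, and Gsta1 is highest in TCi-HCC981, at 142 CPM.

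Gsto1 (chr19:47854970-47864790) ranged from 31.6 to 82.6 CPM in livers with a median of 69.8 CPM. It fell to 10.5 CPM in T-HCC662 and, in T-HCC663, to 11.2 CPM, and the other tumors had 28.9 CPM in T-HCC941, 28.8 CPM in T-HCA992, 62.5 CPM in TCi-HCA984, and 48.4 CPM in TCi-HCC981 (difference -1.95 ± 0.42, adjusted p = 0.0158). Gstt2 (chr10:75831114-75837424), a theta class gene, ranged from 65.9 to 215 CPM in livers with a median of 107 CPM. The Ctnnb1-mutated tumors, at 252 CPM and 141 CPM, overlapped the livers, whereas the others had 81.1 CPM in T-HCC941, 47.9 CPM in T-HCA992, 38.7 CPM in TCi-HCA984, and 31.2 CPM in TCi-HCC981 (difference 2.00 ± 0.48, adjusted p = 0.0226). For Gstk1 the difference was 1.13 ± 0.32 (adjusted p = 0.0403), with both classes below the livers.

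Sult1b1 (chr5:87513339-87538195), which sulfates phenols and thyroid hormone, ranged from 17.5 to 33.7 CPM in livers with a median of 23.4 CPM. It was 58.3 CPM in T-HCC662, 30.6 CPM in T-HCC663, 9.30 CPM in T-HCC941, 7.23 CPM in T-HCA992, 14.1 CPM in TCi-HCA984, and 6.01 CPM in TCi-HCC981 (difference 2.31 ± 0.34, adjusted p = 0.00246). Sult4a1 (chr15:84076097-84105754) had 0.191 CPM at most in any liver and no read in T-HCC662 and T-HCC663. It was at 19.6 CPM in T-HCC941, 42.0 CPM in T-HCA992, 0.973 CPM in TCi-HCA984, and 0.924 CPM in TCi-HCC981. The pooled level of these 4 was at least 285-fold higher than that of the Ctnnb1-mutated tumors, taken at 3 reads over the group (adjusted p = 0.024). It passed the low-count filter through the tumors where it is high, which gave the direction. The summed level of 5 cholangiocyte markers was 1070 CPM in T-HCA992, 409 CPM in T-HCC941, 287 CPM in TCi-HCA984, 60.7 CPM in TCi-HCC981, 35.1 CPM in T-HCC663, and 17.6 CPM in T-HCC662, against 50.4 to 135 CPM in livers. In the first of these tumors 1042 CPM and in T-HCC941 379.5 CPM were Spp1 (osteopontin). Of the defining markers, Krt19, Krt7 and Epcam were at 0.321, 0.214 and 0.214 CPM in T-HCC941, with Krt19 and Epcam below every liver, and at 1.01, 1.22 and 2.59 CPM in T-HCA992. Sox9 was at 29.2 and 22.0 CPM in these tumors, at 21.8 CPM in TCi-HCA984 and at 56.3 CPM in TCi-HCC981, above the 7.15 to 14.8 CPM of the livers. The part of these cells in the Sult4a1 values was not tested.

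Against livers, the Ctnnb1-mutated tumors had 7 members higher (Gsta1, Gstm2, Gstm3, Gstm6, Sult1a1, Sult2a2, and Sult2a6) and 3 lower (Gsto1, Sult2a7, and Sult5a1), where 5% of all genes were higher and 3.2% were lower. Sult1a1 passed the threshold here, with a log2 fold change of 1.30 ± 0.29 (adjusted p = 0.0202). The tumors without a Ctnnb1 mutation had 5 members higher (Gsta1, Gstm3, Sult2a2, Sult2b1, and Sult4a1) and 12 lower (Gstk1, Gstm2, Gstt2, Gstz1, Sult1b1, Sult1d1, Sult2a7, Sult2a8, Sult5a1, Ugt2a3, Ugt2b1, and Ugt3a1), with 11.3% of all genes higher and 11.5% lower. The livers together held 1 read of Sult2a2, 3 of Sult2a6, 0 of Sult2b1, and 5 of Sult4a1. These 4 genes were left out of the all-tumor test for too few reads and entered here through the tumors alone, so that their direction was given by the filter. Both comparisons share the 6 livers. Gsta1 had much the same value in both, 3.28 ± 0.73 (adjusted p = 0.0195) and 3.26 ± 0.65 (0.00495).

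**Figure D5:**
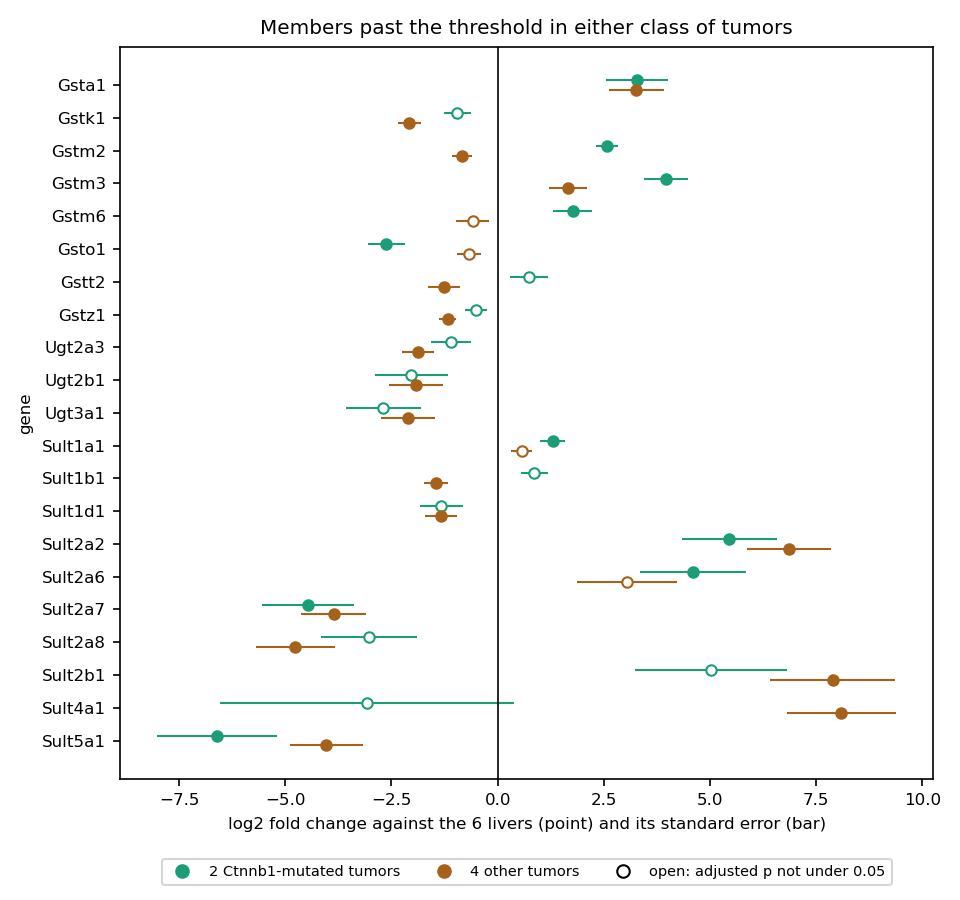
Log2 fold change against the 6 livers (point) with its standard error (bar) for the 21 members past the threshold in either class, with the 2 Ctnnb1-mutated tumors in green, the 4 other tumors in brown, and open points where the adjusted p was not under 0.05. Gstm2 lies on opposite sides of 0 in the 2 classes, whereas Gsta1 nearly coincides. Values of genes with almost no reads in a group (Sult2a2, Sult2a6, Sult2b1, and Sult4a1) depend on the prior count of the fit.

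The higher levels of Gstm2, Gstm3 and Gstm6 in the Ctnnb1-mutated tumors stood beside differences in other genes. Gstm3 was also above every liver in T-HCC941, T-HCA992 and TCi-HCC981. In these tumors the pericentral hepatocyte genes summed to 487, 490 and 602 CPM, below every liver. All 8 pericentral hepatocyte genes, Glul, Oat, Cyp2e1 and Axin2 among them, passed the threshold as higher in the Ctnnb1-mutated than in the other tumors, and 5 of 6 periportal genes as lower. Summed levels of 4 endothelial markers were 48.5 and 76.5 CPM in T-HCC662 and T-HCC663 and 119 to 184 CPM in the other tumors, and those of 4 stellate cell markers 10.7 and 35.1 CPM against 69.7 to 153 CPM. The part of these cells in the class differences was not tested. The class comparison rests on 2 tumors: without T-HCC662, 2 members kept their call (Gstm2 and Sult1b1), without T-HCC663 4 did (Gstm2, Gstm6, Gstt2, and Sult1b1), and without TCi-HCC981 5 did (Gstm2, Gstm6, Gsto1, Sult1b1, and Sult4a1). Gstm2 and Sult1b1 were called with each of the 6 tumors left out in turn. With the mouse as a block, which compares each tumor with its own liver, Gstm2 and Gstm3 were called and the other 6 were not.

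Among the 4 tumors without a Ctnnb1 mutation, those with an Egfr or Hras mutation were compared with those with neither. No member passed the threshold in either direction, as for all genes tested (0% higher and 0% lower), and 14 of 50 members had an unadjusted p under 0.05, where 8.77% of all genes did. Of the 14, 6 were Ugt1a symbols, and with Ugt1a1 standing for these the count was 8 of 43. That count leaves the locus out because Ugt1a1 itself had an unadjusted p of 0.0536 by edgeR's test. All 8 Ugt1a symbols had a log2 difference above 0, with a median of 0.82. DESeq2 called 0 members and 0.696% of all genes. Gsta1 had 43.4 and 142 CPM in T-HCC941 and TCi-HCC981 against 16.1 and 9.04 CPM in T-HCA992 and TCi-HCA984 (log2 difference 2.87 ± 1.03, adjusted p = 0.524). Gstm1 had 2130 and 6114 CPM against 1063 and 1414 CPM (1.72 ± 0.57, adjusted p = 0.524).

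Within genotypes, the p21+/Tert tumors had 2 members higher than p21+/Tert livers (Gstm3 and Sult2a2) and 7 lower (Gsto1, Sult1d1, Sult2a7, Sult2a8, Ugt2b1, Ugt2b38, and Ugt3a1) of 50 tested, where 4.2% and 2.3% of all genes were. The count fell to 1 (Sult2a7) without the T-HCC662 liver and to 3 without the T-HCC663 liver (Sult2a7, Ugt2b1, and Ugt3a1), and it was 19 under DESeq2, which called 14% of all genes. Sult2a2 again entered through the tumors, with no read in these 4 livers. Ugt2b38 had 18.8 and 14.0 CPM in those livers and 1.46 and 1.12 CPM in the T-HCC941 and T-HCA992 livers, with 0.173 to 0.801 CPM in the 4 tumors. It shares 24.2% of its exon windows with other genes, among them Ugt2b5.

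The p21+/TertCi tumors had no member past the threshold against their livers, with 0% of all genes higher and 0% lower, 2 libraries against 2, and 9 of 50 members at an unadjusted p under 0.05, where 10.7% of all genes were. DESeq2 called 4 members there (Gsta1, Gstp2, Sult2a2, and Sult2a7) and 2.69% of all genes. Sult2a2 had 1 read in these 2 livers together, and Sult2b1, also among the 9, had none. Both entered through the tumors, so that their direction was given by the filter. The difference between the genotypes in the change from liver to tumor was tested itself, and 0 members passed by edgeR and by DESeq2. DESeq2 gave an adjusted p to 2808 genes only, of which 0.356% passed in either direction, and members outside these could not be called. By edgeR, over 15182 genes, 0% were higher and 0% lower. An unadjusted p under 0.05 was found for 7 of 50 members and 3.66% of all genes. The 7 were Gsto1, the glucuronosyltransferases Ugt2b1, Ugt2b5, Ugt2b36 and Ugt2b38, and the pi class genes Gstp1 and Gstp2, all with a difference above 0. Gstp1 and Gstp2 share 34.8% and 42.2% of their exon windows with each other or a pseudogene, so that reads may be split between them (both named after their values were seen). Gstp1 (chr19:4035407-4037985), which is higher in male than in female mouse liver, had 70.5 to 309 CPM in p21+/Tert tumors against 263 to 570 CPM in p21+/Tert livers, and 675 and 196 CPM in the p21+/TertCi tumors against 184 and 126 CPM in their livers (difference 2.95 ± 0.89, adjusted p = 1). The 2 Ctnnb1-mutated tumors, which are both p21+/Tert, had the lowest values, 70.5 and 94.98 CPM.

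In the livers alone, no member differed between p21+/TertCi and p21+/Tert mice by edgeR or DESeq2 (0% of all genes higher and 0% lower by edgeR, and 0.315% in either direction by DESeq2), and 4 had an unadjusted p under 0.05, where 4.98% of all genes had. With the Ugt1a genes counted once, estimates were below 0 for 36 of 43 members, with a median of -0.64 against 0.02 over all genes. The TCi-HCA984 liver is 1 of the 2 p21+/TertCi livers: Gsta2 was at 1.33 CPM there and at 38.3 CPM in the TCi-HCC981 liver, and Gsta3 at 248 and 939 CPM. In the tumors without a Ctnnb1 mutation, which have the same mix of classes in both genotypes, no member passed between p21+/TertCi and p21+/Tert (0.00659% of all genes higher and 0% lower, 4 members and 8.02% of all genes at an unadjusted p under 0.05). DESeq2 called 2 members, Sult4a1 lower and Ugt3a2 higher in p21+/TertCi, and 1.11% of all genes. Ugt3a2 had 268 and 155 CPM in TCi-HCC981 and TCi-HCA984 and 46.9 and 47.0 CPM in T-HCC941 and T-HCA992.

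Genes that supply these enzymes were read against the same shares of all genes, 6.77% higher and 3.91% lower over all tumors. Of 12 genes listed for glutathione supply, 10 were tested over all tumors, and Slc7a11 (the cystine importer), Ggct and Gss were higher. Cth and Cbs (which make cysteine) were lower, as was Mgst1, a microsomal transferase that uses glutathione and does not supply it. Cth fell by 2.00 ± 0.30 on the log2 scale (adjusted p = 0.00192) and Cbs by 1.34 ± 0.23 (0.00423). Of 6 genes listed for UDP-glucuronate supply, 2 were higher (Pgm1 and Gusb) and 0 lower. Gusb is β-glucuronidase, which splits glucuronides and does not supply UDP-glucuronate. Pgm1 was at 2.02 to 6.12 CPM in livers and 4.32 to 13.6 CPM in tumors. Pgm2, more abundant at 184 to 232 CPM in livers and 133 to 234 CPM in tumors, did not pass. Of 8 genes of sulfate donor supply, 0 were higher and 3 lower, with Papss2, a PAPS synthase, at -1.07 ± 0.31 (adjusted p = 0.0406), beside Slc26a1, a sulfate transporter, and Suox, sulfite oxidase. Of 10 genes of regulators and their readouts, Nqo1, a target of Nrf2, was higher (2.52 ± 0.57, adjusted p = 0.0149) and Nr1h4, the bile acid receptor FXR, lower (-1.10 ± 0.30, adjusted p = 0.0328).

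Between Ctnnb1-mutated and other tumors, where 6.76% of all genes were higher and 5.72% lower, each supply list had 1 gene in each direction. In UDP-glucuronate supply, Ugdh, which makes UDP-glucuronate, was higher (1.43 ± 0.36, adjusted p = 0.027) and Slc35d1, which carries it into the endoplasmic reticulum, lower (-1.33 ± 0.32, adjusted p = 0.0233), with a median of -0.85 over the 6 genes. In the glutathione supply list, the transferase Mgst1 was higher (1.11 ± 0.33, adjusted p = 0.0472) and Slc7a11 lower (-2.86 ± 0.84, adjusted p = 0.0456). In sulfate donor supply, Suox was higher (1.46 ± 0.32, adjusted p = 0.0166) and Impad1, a phosphatase of the Golgi, lower (-1.24 ± 0.37, adjusted p = 0.0495). Of the 10 regulators, the receptors Ahr (1.83 ± 0.35, adjusted p = 0.00881) and Nr1i2 (1.20 ± 0.29, adjusted p = 0.0221), which sense foreign compounds, were higher and 0 were lower. The summed level of the 8 sulfate donor genes lay between 368 and 538 CPM in tumors and between 622 and 903 CPM in livers.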

How the data were processed

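Poly(A) RNA of 12 libraries was sequenced paired-end. According to the study's methods and the submitters' processing notes, the authors aligned reads with Subread, using mm10 plus an mCherry sequence, and deposited raw counts per gene made with featureCounts 1.6.4; the annotation release, strandedness and treatment of multiply mapped reads are not given in the sources used here. Between 14571716 and 26170661 reads were counted per library; intervals and floors cover counting error only. Counts were analysed in R 4.3.3 with edgeR 4.0.16 (filterByExpr, TMM scaling, quasi-likelihood test, Benjamini-Hochberg adjustment over all genes tested, threshold 0.05). Standard errors are the log2 fold change divided by the square root of F. All tumors were compared with all livers in 1 fit, genotypes in a 4-group fit, and driver classes, taken from the mutations the study gives, in a separate fit. Scripts were tested on simulated counts. DESeq2 1.42.0, RLE scaling, no low-count filter, a fit to the compared libraries alone, a replicate block and leaving out each library were alternatives.

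Tumor and liver of 1 number come from the same mouse, which pairs them; 1 liver whose title carries another number was taken, from the study's tables, as that of the T-HCC662 mouse in its name here, in this block and wherever a tumor is set against its own liver. Over 13822 genes, deviations of each tumor and its own liver from the group means correlated at 0.04 to 0.548. Where nothing else is said, p-values come from fits without a mouse term, which take tumor and liver of a mouse as independent. They measure the spread between libraries within groups, pooled over livers and tumors. Exon windows and positions come from the GRCm38 annotation, promoters from RefSeq (GRCm38.p6). Named with values were, per family, members past the threshold over all tumors or between Ctnnb1-mutated and other tumors, the 3 of highest mean CPM per kilobase, and Gsta1; others are said to be chosen after their values were seen. The members and lists were chosen with earlier results of these data known.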

Additional observations from a re-analysis of the deposited data

Results flagged for a closer look

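Among the 6 tumors or the 6 livers, 5 values lay far from the rest by Dixon's criterion, of 46 groups examined. Its chance rate of about 1 group in 20 assumes independent, normally distributed values. That rate does not carry over to these CPM values, where Ugt1a1, Ugt1a5 and Ugt1a9 share reads. Gsta1 was at 141.9 CPM in TCi-HCC981, with the next tumor at 44.76 CPM. Sult5a1 was at 9.466 CPM in T-HCC941, with the next at 0.9756 CPM, and Sult2a7 at 2.747 CPM in TCi-HCA984, with the next at 0.9533 CPM. In the livers, Gsto1 was at 31.58 CPM in the TCi-HCA984 liver, with the next at 64.94 CPM, and Sult4a1 at 0.1912 CPM in the T-HCC663 liver, with the next at 0.05317 CPM. That Sult4a1 value is 3 reads against at most 1 in each other liver, too few to tell these livers apart.

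Levels differed between tumor classes for 8 members in the direct test of Ctnnb1-mutated against other tumors (edgeR, quasi-likelihood). With the mouse as a block, which compares the changes from each mouse's own liver, 2 of them were called, Gstm2 and Gstm3. The log2 difference was 3.41 for Gstm2, 2.35 for Gstm6, 2.31 for Sult1b1, 2.30 for Gstm3, 2.00 for Gstt2, and 1.13 for Gstk1. It was -1.95 for Gsto1 and -11.17 for Sult4a1, a value that rests on no reads in the Ctnnb1-mutated tumors and depends on the prior count.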

How the results depend on the processing

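Members called were 19 under DESeq2 in place of 9 for p21+/Tert tumors against livers, and 4 in place of 0 for p21+/TertCi tumors against livers. They were 18 in place of 10 for Ctnnb1-mutated tumors against livers, and 2 in place of 0 for p21+/TertCi against p21+/Tert tumors without a Ctnnb1 mutation. The cause was not tested. Of all genes, DESeq2 called 14% for p21+/Tert, 2.69% for p21+/TertCi, and 1.11% between the genotypes in these tumors. The share for Ctnnb1-mutated tumors is not given here, so the rise in their count cannot be told from a rise over all genes. With the replicate block, 2 were called in place of 8 between Ctnnb1-mutated and other tumors (Gstm2 3.94 and Gstm3 2.43). The block gave 11 calls over all tumors, of which 10 were shared, with Ugt2b1 lost and Sult1a1 gained. Leaving out 1 library gave 6 to 13 calls over all tumors (11 with all), 1 to 11 for p21+/Tert (9), 2 to 10 for Ctnnb1-mutated tumors against livers (10), 12 to 19 for other tumors against livers (17), and 2 to 8 between the classes (8). The comparisons with 0 calls stayed at 0 in each such fit. Where a class kept 1 library, it was assumed to vary like the others. Shares of all genes called with 1 library left out are not given here, so shifts in these counts cannot be told from shifts over all genes. No paired fit could be made for livers or tumors between genotypes, since each mouse has 1 genotype. Directions were checked for the named members, over all tumors and between Ctnnb1-mutated and other tumors. None that was called in the main or the alternative fit reversed. Sign changes of members called in neither were not counted. At these depths a member with 0 reads in a group is known only to lie under its floor.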
